A study of Bos taurus with 15 samples.

Results

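The mitochondrially encoded respiratory chain genes described here are 6 genes chosen by a fixed list of Ensembl IDs, out of the 27607 genes in the raw count table. They are MT-CO1 (ENSBTAG00000043561), MT-CO2 (ENSBTAG00000043556), MT-CO3 (ENSBTAG00000043560), MT-CYB (ENSBTAG00000043550), MT-ATP6 (ENSBTAG00000043584) and MT-ND1 (ENSBTAG00000043558). The symbols come with the list. The deposited table gives IDs only and the RefSeq table used here pairs none of them, so the symbols were not checked against an annotation, and no sequence, length or position is printed. All 6 genes passed the filter on low counts, which kept 12270 genes.

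Blood was taken at weaning from 15 Angus-Simmental crossbred heifers, and RNA was sequenced from their peripheral white blood cells (PWBC). These are the cells pelleted from the buffy coat once red blood cells were lysed. All heifers later followed the same synchronization and fixed-time artificial insemination (AI), followed by exposure to bulls. Group 1 was pregnant to AI (8 heifers, IDs 4, 6, 34, 40, 41, 43, 45 and 47). Group 2 was not-pregnant (7 heifers, IDs 3, 33, 37, 39, 42, 44 and 48). No heifer carried a treatment or genetic change, and the groups were set after the breeding season, so the comparison is between animals that differed in a later outcome. Each heifer gave 1 library, and between 15987111 and 24909038 counts per library fell on genes. An earlier look at these data placed the whole expression profiles of heifers 4 and 37 nearer to the other group, so values are also given without them. The labelled cell type was not checked against leukocyte markers, because the IDs are not paired with gene names.

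The mitochondrial genome encodes core subunits of the respiratory chain, and the nucleus encodes all the rest. MT-ND1 is a membrane subunit of complex I, which takes electrons from NADH, and MT-CYB is the cytochrome b of complex III. MT-CO1, MT-CO2 and MT-CO3 form the core of cytochrome c oxidase (complex IV), in which MT-CO1 and MT-CO2 carry the metal centres that pass electrons to oxygen. MT-ATP6 is part of the proton channel of ATP synthase. These genes are transcribed together as long RNAs that are cut, mostly at the tRNA genes between them, so the level of each mature mRNA depends on processing and decay as well as on transcription. Leukocytes differ in their mitochondria, and mature neutrophils draw most of their energy from glycolysis. In bulk RNA, fewer cells of a type and less RNA per cell cannot be told apart.

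In the RefSeq order of the 13 protein genes of the bovine mitochondrial genome, MT-ND1 came first and MT-CYB last. MT-CO1 and MT-CO2 were consecutive protein genes with tRNA genes between them. MT-ATP6 and MT-CO3 were also consecutive, with no tRNA gene between them, and they overlap at their ends. MT-ATP6 overlaps the gene before it (ATP8) as well. This order was read from the ARS-UCD2.0 assembly, while the counts were made on ARS-UCD1.2, so it is used for neighbours only. STAR does not assign a read that overlaps 2 genes, and it leaves out reads that map to several places, such as nuclear copies of mitochondrial sequence, so counts of these genes are uncertain to that extent.

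Together the 6 genes took 4.01% ± 1.46 (SD, n = 15) of all counts on genes, and this share differed 3.30-fold between the lowest and the highest heifer. In heifers pregnant to AI it was 2.46% in heifer 43, 2.67% in heifer 41, 3.26% in heifer 45, 3.32% in heifer 34, 4.66% in heifer 4, 4.85% in heifer 47, 5.92% in heifer 40 and 8.13% in heifer 6. In not-pregnant heifers it was 2.94% in heifer 48, 3.09% in heifer 33, 3.45% in heifer 39, 3.49% in heifer 42, 3.68% in heifer 37, 3.73% in heifer 3 and 4.56% in heifer 44. Heifers pregnant to AI therefore sat at both ends, with 4 above every not-pregnant heifer and 2 below all of them.

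**Figure D1:**
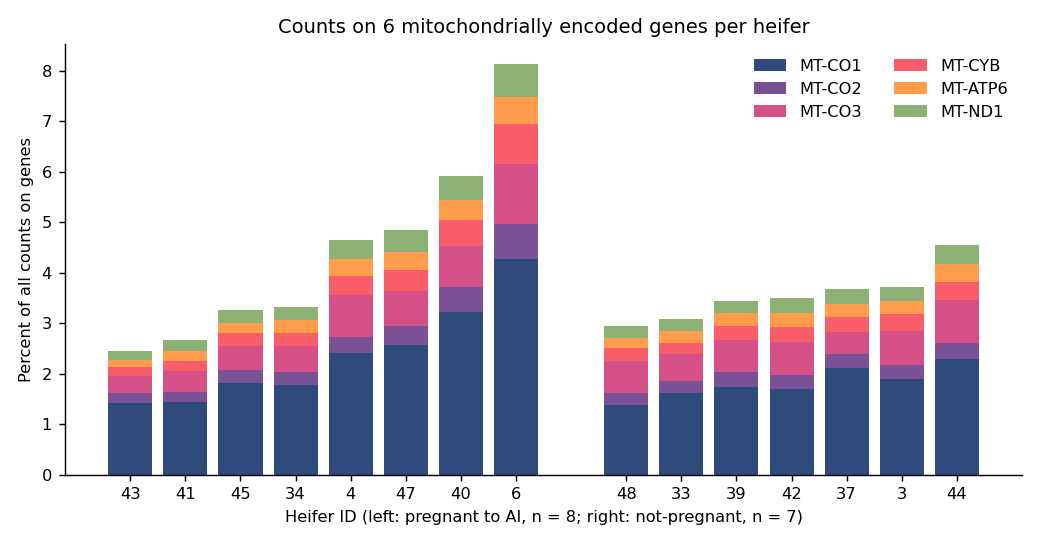
Stacked bars of the percent of all counts on genes (y axis) taken by each of the 6 genes in each heifer (x axis, heifer ID), with 8 heifers pregnant to AI on the left and 7 not-pregnant heifers on the right, each sorted by the sum. The sum runs from 2.46% in heifer 43 to 8.13% in heifer 6 among heifers pregnant to AI, and from 2.94% to 4.56% among not-pregnant heifers.

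The mean of the summed share was 4.41% ± 1.92 (SD, n = 8) for pregnancy to AI and 3.56% ± 0.527 (SD, n = 7) for the not-pregnant group. The difference of 0.847 percentage points is smaller than the SD of the first group, and it was 0.316 percentage points without heifer 6. Without heifers 4 and 37 it was 0.831 percentage points. As a sum over listed genes it is given with no test. Every gene had at least 26704 counts in every heifer, where counting alone gives an error of at most 0.612%, far below the differences between heifers.

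MT-CO1 took the largest part of these counts, between 47.2% and 58.1% of the counts on the 6 genes in a heifer. MT-CO3 took 11.9% to 21.6% of them and each of the other 4 genes between 5.75% and 9.56%. These are parts of the counts and are not corrected for gene length, so no order of expression between the genes is read from them. MT-CO1 had more counts than any other gene in all 8 heifers pregnant to AI and in heifer 37. In the other 6 not-pregnant heifers it was second to ENSBTAG00000043570, a gene without a name in the tables used here that was singled out after its values were seen. That gene took 1.64% to 5.99% of counts in not-pregnant heifers and 0.779% to 2.69% in heifers pregnant to AI. Its log2 fold change of -1.08 (standard error 0.34) is given with no test. The gene was singled out for having the most counts in those 6 not-pregnant heifers, a choice made on the same counts.

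Raw counts of all 12270 genes were normalized by TMM, a correction for library size and composition, and tested by quasi-likelihood in edgeR. To be called, a gene needed an adjusted p (Benjamini-Hochberg) no higher than 0.05 together with a log2 fold change of 0.5 or more in either direction. Positive fold changes stand for more expression in the group pregnant to AI. Of the 6 genes, 0 were called, against 5.85% of all genes tested. At an unadjusted p under 0.05 there were also 0 of 6, against 34.4% of all genes tested. DESeq2 and limma-voom called 0 of 6 as well, and each gave 0 at an unadjusted p under 0.05. Of all 12270 genes tested, DESeq2 called 1116 and had 4470 at an unadjusted p under 0.05. For limma-voom these numbers were 730 and 4255. The median log2 fold change of the 6 genes was 0.21, against 0.01 over all genes tested, and 5 of the 6 were above 0 in this fit. The 6 genes varied together over the same heifers, as described below, so these counts are not 6 independent observations.

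For MT-CO1, the catalytic subunit of complex IV, the share of counts in heifers pregnant to AI was lowest at 1.43%, had a median of 2.11% and was highest at 4.28%. In not-pregnant heifers the lowest, median and highest shares were 1.39%, 1.75% and 2.29%. The groups overlapped, although 4 heifers pregnant to AI lay above every not-pregnant heifer. On the TMM scale the means were 22878 CPM ± 10476 (SD, n = 8) and 19318 CPM ± 2911 (SD, n = 7), and the log2 fold change was 0.24 (standard error 0.24, edgeR adjusted p = 0.487).

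For MT-CO2, which receives electrons from cytochrome c, the lowest, median and highest shares were 0.194%, 0.291% and 0.690% in heifers pregnant to AI. In not-pregnant heifers they were 0.227%, 0.277% and 0.329%. The not-pregnant values lay inside the range of the other group. The log2 fold change was 0.22 (standard error 0.26, edgeR adjusted p = 0.559).

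MT-CO3, the third core subunit of complex IV, had shares of 0.328%, 0.596% and 1.198% (lowest, median and highest) in heifers pregnant to AI. In not-pregnant heifers they were 0.439%, 0.636% and 0.847%. Its log2 fold change, the only one of the 6 below 0 in this fit, was -0.09 (standard error 0.27, edgeR adjusted p = 0.829), and its sign turned in 3 other fits. It was 0.05 with library size only, 0.02 without heifer 43 and 0.37 with 1 surrogate variable. A surrogate variable is a term estimated from the counts to take up unmodelled variation, and it is not forced to be independent of the groups.

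For MT-CYB, the cytochrome b of complex III, the lowest, median and highest shares were 0.181%, 0.319% and 0.777% in heifers pregnant to AI. They were 0.219%, 0.292% and 0.361% in not-pregnant heifers, again inside the wider group. Its log2 fold change was 0.23 (standard error 0.29, edgeR adjusted p = 0.591).

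MT-ATP6 had shares of 0.141%, 0.296% and 0.543% in heifers pregnant to AI and of 0.207%, 0.260% and 0.359% in not-pregnant heifers (lowest, median and highest). Its log2 fold change was 0.06 (standard error 0.25, edgeR adjusted p = 0.882), the closest to 0 of the 6 genes. MT-ND1, the complex I subunit, had shares of 0.187%, 0.321% and 0.643% against 0.226%, 0.290% and 0.377%. Its log2 fold change was 0.21 (standard error 0.26, edgeR adjusted p = 0.584). In the share of each of the 6 genes but MT-CO1, 2 heifers pregnant to AI, 41 and 43, lay below every not-pregnant heifer.

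**Figure D2:**
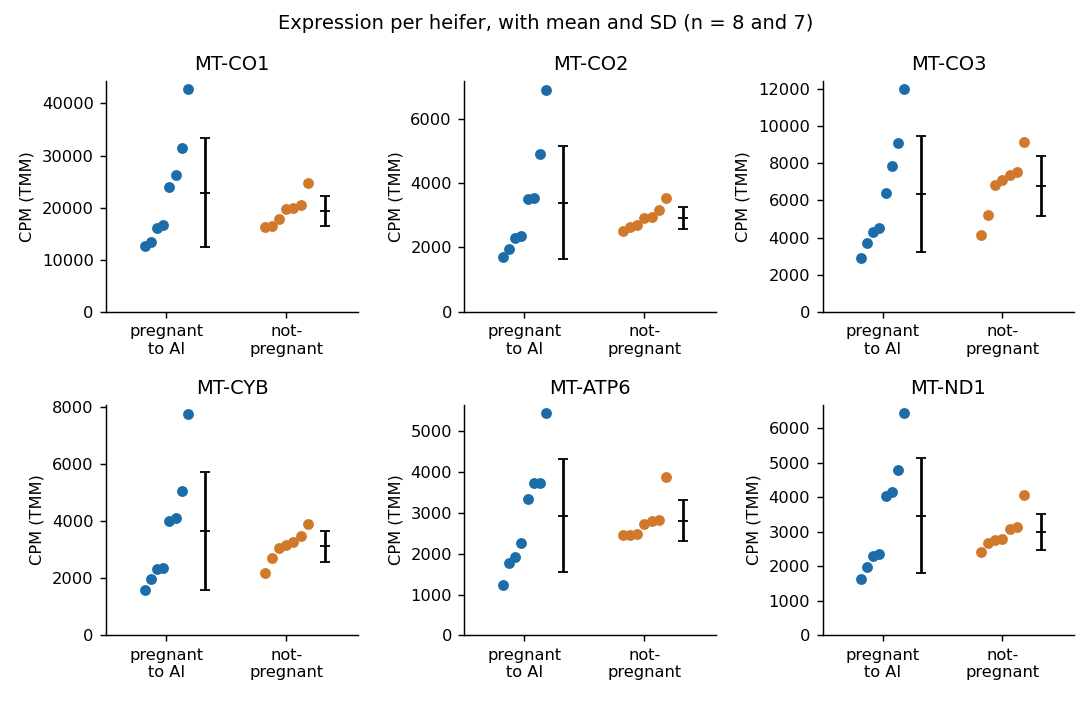
Expression of each gene (y axis, CPM after TMM normalization, each panel from 0) in each of 8 heifers pregnant to AI and 7 not-pregnant heifers, with the mean and SD of the group as a bar beside the points. In every panel the 7 not-pregnant heifers are closer together than the 8 heifers pregnant to AI, as for MT-CO1 with an SD of 2911 against 10476 CPM.

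The wider spread in heifers pregnant to AI was seen in all 6 genes. The coefficient of variation of the share was 41.6% to 52.6% in heifers pregnant to AI and 11.5% to 20.3% in not-pregnant heifers. Heifer 6 was the highest of all 15 heifers for each gene, in share and in TMM CPM. Heifer 43 was the lowest for each gene in TMM CPM, and in share for each gene but MT-CO1, whose share was lowest in heifer 48. Over all heifers the SD of log2 CPM was between 0.47 (MT-CO1) and 0.58 (MT-CYB), against a median of 0.29 over all genes tested, and 77.3% to 85.4% of the genes tested had a lower SD. The equality of the spread between groups was not tested.

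The log2 fold changes depended on heifer 6, on the scaling and on a surrogate variable, and no fit called any of the 6 genes. Without heifer 6, the log2 fold change of MT-CO1 was 0.06, of MT-CO2 -0.0052, of MT-CO3 -0.29, of MT-CYB -0.02, of MT-ATP6 -0.12 and of MT-ND1 0.02. With library size as the only scaling, the median of all genes tested went from 0.01 to 0.18, and MT-CO1 had 0.38 (standard error 0.22, edgeR adjusted p = 0.200). With 1 surrogate variable the 6 values lay between 0.31 (MT-ATP6) and 0.50 (MT-CYB), with 0.39 for MT-CO1 and 0.37 for MT-CO3, and edgeR called 0 of all genes tested (1152 at an unadjusted p under 0.05). Without heifers 4 and 37, MT-CO1 had 0.22 and MT-CO3 had -0.28 (standard error 0.28, edgeR adjusted p = 0.455).

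**Figure D3:**
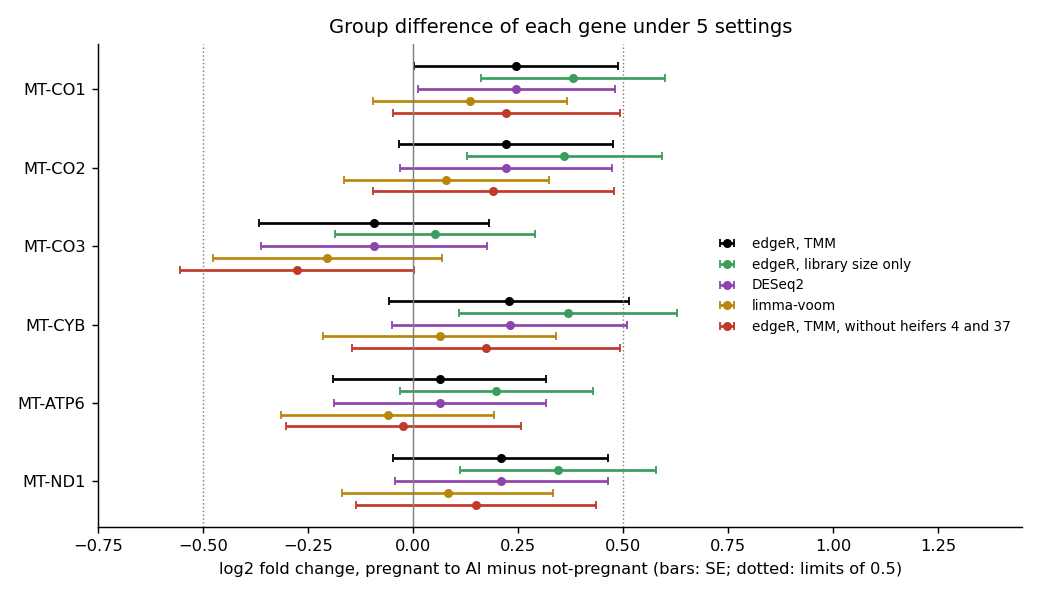
Log2 fold change of each gene (x axis, pregnant to AI minus not-pregnant, points with standard errors) in 5 settings, with dotted lines at the limits of 0.5. All points lie within the limits, and MT-CO3 lies to the left of the other 5 genes in each of the settings shown. In the fit with 1 surrogate variable, which is not drawn, MT-CO3 (0.37) was above MT-ATP6 (0.31).

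The levels of the 6 genes varied together from heifer to heifer. Over 15 heifers Pearson's r of log2 CPM lay between 0.83 and 0.98 for the 15 pairs of genes, with a median of 0.96, and Spearman's rho lay between 0.80 and 0.98. In permutation tests with 100000 resamples (two-sided) the highest p was 0.00014 for r and 0.00062 for rho, and 12 pairs reached 2e-05 for r, the smallest p these permutations can give. The highest adjusted p of the r and rho values was 0.000845, adjusted over the 60 correlations computed. The genes of a pair share the library, its depth and its normalization. With the 6 genes left out of library sizes and TMM factors, the median r stayed at 0.96. Both genes of a pair still had the same scaling within a heifer, so this cannot tell shared scaling from shared levels. Leaving out the 2 heifers farthest from the median of the first gene of a pair, the values of r were between 0.79 and 0.97. Those heifers were 6 and 40, 6 and 43, or 41 and 43.

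MT-CO3 followed the other genes least closely. The 10 pairs without MT-CO3 had r of at least 0.93, the lowest being MT-CO1 with MT-ATP6 at 0.935, and the 5 pairs with MT-CO3 had at most 0.930, for its neighbour MT-ATP6. MT-CO1 and MT-CO3 had the lowest r, 0.83 (rho 0.80, permutation p = 0.00014 for r and 0.00062 for rho). The highest was that of MT-CO2 with MT-CYB, 0.98, although these genes lie far apart in the RefSeq order and belong to different complexes.

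Within heifers pregnant to AI all 15 pairs had r between 0.956 and 0.996 (exact permutation tests, all adjusted p-values under the threshold of 0.05). Within not-pregnant heifers r lay between 0.39 and 0.95, and 11 of the 15 pairs were under that threshold. The lowest again was MT-CO1 with MT-CO3, with r = 0.39 (exact permutation test, p = 0.375). The difference between the groups in r was not tested, and r depends on the spread, which was narrower in not-pregnant heifers. Without heifers 4 and 37, r over the other 13 heifers was 0.854 to 0.988.

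**Figure D4:**
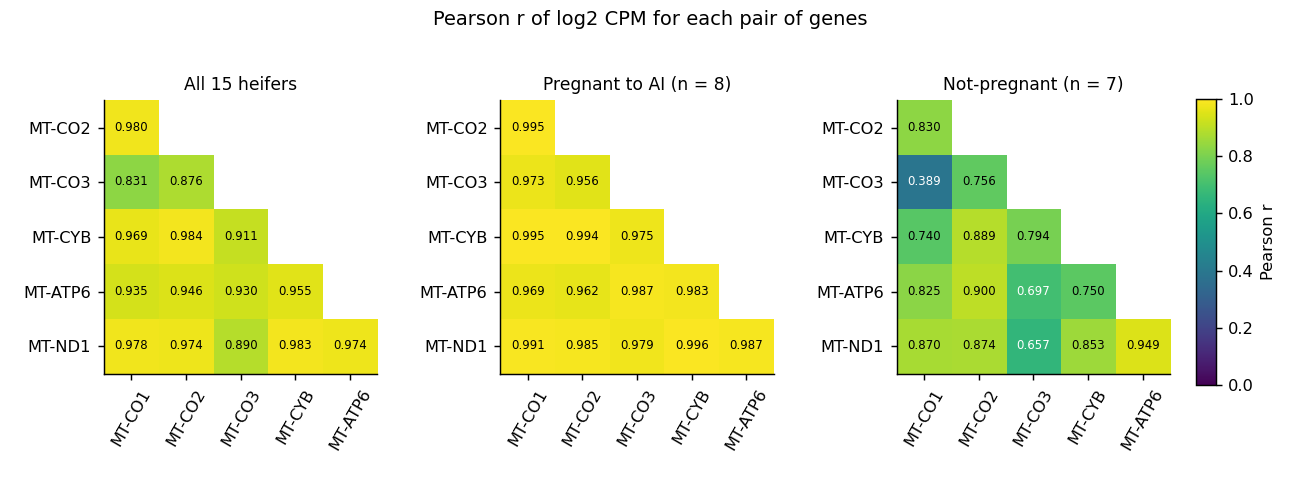
Pearson r of log2 CPM (colour, 0 to 1, with the value printed) for each pair of the 6 genes over all 15 heifers, the 8 heifers pregnant to AI and the 7 not-pregnant heifers. The row and column of MT-CO3 hold the lowest values over all heifers, down to 0.83 with MT-CO1, and that pair has 0.39 in not-pregnant heifers.

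Ratios of counts within a heifer do not depend on library size or normalization, and all 15 ratios between the 6 genes were compared. The SD of the log2 ratio over 15 heifers was 0.10 to 0.19 for the 10 ratios without MT-CO3 and 0.21 to 0.32 for the 5 with it. MT-CO1 to MT-CO2 was the steadiest, with 6.11 to 7.54 counts of MT-CO1 for each count of MT-CO2 in all heifers. The ratio of MT-CO3 to MT-CO1 varied most. Among the ratios with MT-CO3, that to MT-ATP6 had the lowest SD.

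In heifers pregnant to AI there were 0.230 counts of MT-CO3 per MT-CO1 count in heifer 43, 0.250 in heifer 40, 0.257 in heifer 45, 0.267 in heifer 47, 0.279 in heifer 41, 0.280 in heifer 6, 0.283 in heifer 34 and 0.346 in heifer 4. In not-pregnant heifers there were 0.208 in heifer 37, 0.323 in heifer 33, 0.360 in heifer 3, 0.361 in heifer 39, 0.370 in heifer 44, 0.386 in heifer 42 and 0.458 in heifer 48. Of the 8 heifers pregnant to AI, 7 were below 6 of the 7 not-pregnant heifers, and heifers 4 and 37 were the ones on the other side. The mean log2 ratio of MT-CO3 to MT-CO1 was lower by 0.34 in heifers pregnant to AI (two-sided exact permutation test over 6435 assignments of the heifers, p = 0.0329, adjusted p = 0.0988 over the 15 ratios). This difference did not pass the adjustment. The ratios were added after values were seen, which the adjustment does not correct for, so the p-values of the ratios are descriptive only. In the edgeR fit with 1 surrogate variable the log2 fold changes of MT-CO3 and MT-CO1 were 0.37 and 0.39, so they were closer to each other than without it (-0.09 and 0.24).

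The 15 ratios are built from the same 6 genes and are not independent. Among all genes tested in edgeR, 34.4% had an unadjusted p under 0.05. That is a share of single genes in another test, and no such share was computed for ratios of other genes. Of the 15 ratios, 6 had an unadjusted p under 0.05 in the permutation test and 0 passed after adjustment, with a lowest adjusted p of 0.0988. The 6 were the ratios of MT-CO3 to MT-CO1, MT-CO2, MT-CYB and MT-ND1 and the ratios of MT-ATP6 to MT-CO1 and MT-ND1. In each of them the gene from the adjoining pair MT-ATP6 and MT-CO3 was lower, relative to the other gene, in heifers pregnant to AI. As the 6 ratios share genes, their common direction is not 6 separate observations. The ratios of MT-ATP6 to MT-CO2 and to MT-CYB were not among them (exact permutation test, p = 0.108 and p = 0.164). A shared effect on the adjoining pair was not tested. The smallest p was that of MT-ATP6 to MT-ND1, with a log2 difference of -0.14 (exact permutation test, p = 0.0127), and 5 heifers pregnant to AI lay below every not-pregnant heifer. Against MT-ATP6 itself, MT-CO3 differed by -0.14 (exact permutation test, p = 0.214).

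Without heifers 4 and 37 the log2 difference of MT-CO3 to MT-CO1 was -0.51, and the groups did not overlap in 4 of the 5 ratios with MT-CO3. These were the only 4 of all 15 ratios without overlap. Over all genes, leaving out these heifers raised the calls in edgeR from 718 of 12270 genes tested to 2451 of 12096. How many other genes or ratios separate in this way was not counted. Heifers 4 and 37 were set apart because their expression profiles lay nearer to the other group. They were also the heifers on the other side in MT-CO3 to MT-CO1. The lack of overlap without them thus follows in part from leaving them out, and no test is given for the other 13. The TMM factors of the libraries ran alongside, with 1.001 to 1.14 in heifers pregnant to AI but for 0.916 in heifer 4, and with 0.842 to 0.998 in not-pregnant heifers but for 1.06 in heifer 37. Their part in the ratios was not tested.

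**Figure D5:**
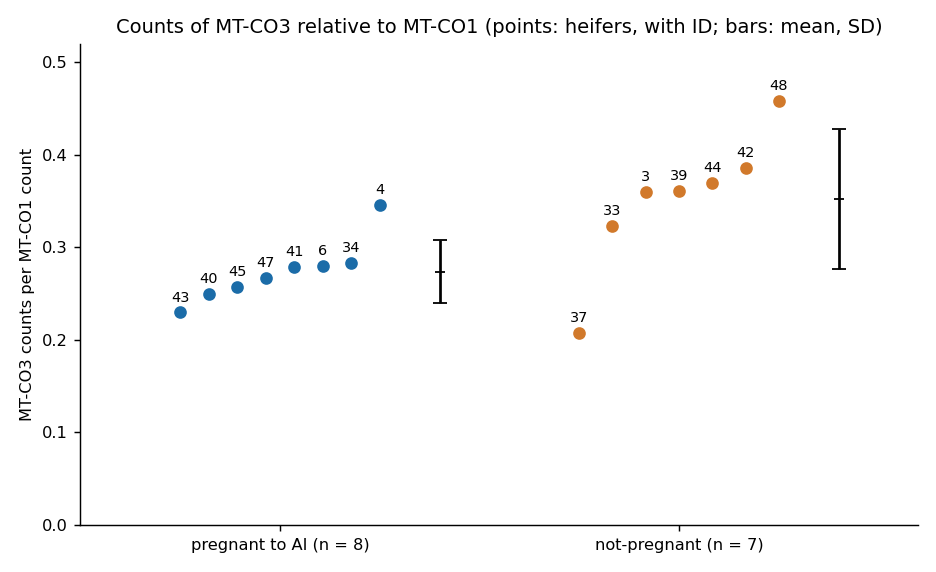
Counts of MT-CO3 per count of MT-CO1 (y axis, from 0) in each heifer, labelled with its ID, with the mean and SD of each group as a bar. The heifers pregnant to AI lie between 0.230 and 0.283 apart from heifer 4 at 0.346, and the not-pregnant heifers between 0.323 and 0.458 apart from heifer 37 at 0.208.

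Among the 12264 other genes tested, few had profiles as close to the 6 genes as these had to each other. Likeness was measured as the mean Pearson r with the 6 genes over 15 heifers, and 7 genes were above 0.8, against a median of 0.00 over the other genes. For the 6 genes themselves the lowest such mean was 0.91, which includes the r of a gene with itself. The closest of the other genes was ENSBTAG00000043577 with 0.97, followed by ENSBTAG00000043571 with 0.96. The lowest were ENSBTAG00000026909 with -0.80 and ENSBTAG00000005960 with -0.79. The tables used here do not pair these IDs with names. Their log2 fold changes were 0.16 for ENSBTAG00000043577 and 0.25 for ENSBTAG00000043571, with edgeR adjusted p-values of 0.711 and 0.494, and for the pair of lowest genes 0.09 and 0.16.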

How the data were processed

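RNA-Seq libraries (paired-end 100 bp reads) were made from PWBC of 15 heifers. The authors checked reads with FastQC 0.11.9 and MultiQC 1.12, aligned them with STAR 2.7.5 to the Ensembl Bos taurus genome ARS-UCD1.2 and deposited raw counts per gene from STAR, which their mapping statistics describe as reverse-stranded. The annotation release and the way mRNA was enriched are not given in the sources used here. Their table of CPM values, scaled from the same counts with edgeR 3.28.1, was not used.

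From the deposited counts, a gene was kept where 8 or more of the 15 heifers had 1 CPM or more, and groups were tested by quasi-likelihood in edgeR 4.0.16 (R 4.3.3, TMM, Benjamini-Hochberg adjustment), with pregnancy status as the only term. Standard errors of fold changes were derived from the F statistic. Log2 CPM had a prior count of 2. DESeq2 1.42.0, limma 3.58.1 (voom) and sva 3.50.0 gave alternatives. Correlations and ratios were tested by permutation in Python 3.11.15 with scipy 1.17.1. Permutations of a correlation numbered 100000 over all heifers and were exact within groups. The fit and the permutation tests were tested on simulated data.

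The genes, lists and tests were chosen with earlier results of these data known. Named genes were the 6 listed genes and, by mean r with them, the closest and the farthest of the other genes, of which 2 each are printed. ENSBTAG00000043570 and the ratios were added after values were seen. Planned lists (other mitochondrial genes, nuclear subunits of the respiratory chain, mitochondrial RNA handling and biogenesis genes, cell type markers) could not be applied without gene names for the IDs, and are not analysed here. The likeness was therefore taken over all other genes, mitochondrial or not.

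No 2 libraries were pooled, and the labels name 1 heifer for each. Depth was 15987111 to 24909038 counts per heifer. Errors from counting do not include spread from PCR.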

Additional observations from a re-analysis of the deposited data

Results flagged for a closer look

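Shares and ratios were searched for a heifer far from the others of its group, by the size of its gap to the next heifer against the range of the group. This was done in 44 sets (6 genes, their sum and 15 ratios in 2 groups) and found such a gap in 6 sets, from heifers 6, 33, 37 and 44, where chance gives about 1 in 20 sets. The sets share counts and are not independent.

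Heifer 44 had the highest share of MT-ATP6 among not-pregnant heifers, 0.359% of counts against 0.270% for the next. Heifer 37 stood apart from the not-pregnant group in 3 ratios with MT-CO3. It had 4.81 counts of MT-CO1 per MT-CO3 count against 3.09 in the next heifer, 0.638 counts of MT-CO2 per MT-CO3 count against 0.477, and 1.52 counts of MT-CO3 per MT-CYB count against 2.13. Heifer 33 had 1.13 counts of MT-CO2 per MT-CYB count against 0.970 in the next not-pregnant heifer. Heifer 6 had 1.21 counts of MT-CYB per MT-ND1 count against 1.05 in the next heifer pregnant to AI.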

How the results depend on the processing

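None of the 25 other fits called any of the 6 genes, as in edgeR with all heifers. The sign of MT-CO1 and MT-ND1 stayed in all 25. MT-CO3 turned from -0.09 to 0.051 with library size only and to 0.37 with 1 surrogate variable, and MT-ATP6 from 0.06 to -0.061 in limma-voom and to -0.024 without heifers 4 and 37. With each heifer left out in turn, MT-CO3 lay between -0.29 (without heifer 6) and 0.020 (without heifer 43), MT-CO2 between -0.0052 and 0.33, MT-CYB between -0.020 and 0.35 and MT-ATP6 between -0.12 and 0.18, with the same heifers at the ends. The cause was not tested.

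The number of genes called among all tested, 718 in edgeR, was 1116 with DESeq2, 92 with DESeq2 and Bonferroni adjustment, 448 without a filter among 20583 genes tested, 2451 without heifers 4 and 37, and 0 with 1 surrogate variable (edgeR, with 1152 genes at an unadjusted p under 0.05). It lay between 81 (without heifer 48) and 1856 (without heifer 4) with each heifer left out, and stayed within 1.5 times of 718 only without heifer 6 (531) or heifer 40 (646). With library size only, 917 of 1013 calls had a positive fold change, compared with 449 of 718. With each heifer left out, the difference in the summed share lay between 0.316 (without heifer 6) and 1.13 (without heifer 43) percentage points, against 0.847, the log2 difference of MT-CO3 to MT-CO1 between -0.46 and -0.27, and the median r between 0.94 and 0.97. The settings with the 6 genes left out of the scaling or the denominator and those of the ratio were chosen after seeing the data. Leaving all mitochondrial genes out was not run, since they are not named. No paired analysis was possible because each heifer has its own ID and belongs to 1 group.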
